A study of Mus musculus with 16 samples.

Results

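The mitochondrial genome of the mouse encodes 37 genes, and all 37 were in the count table of 55573 genes measured in the heart apex of these mice. They were taken as every gene whose symbol starts with mt- once the deposited Ensembl identifiers were named with GENCODE M21, and they comprised 13 protein-coding genes, 2 ribosomal RNA (rRNA) genes and 22 transfer RNA (tRNA) genes. All 37 passed the filter on low counts, which left 16857 genes for the tests. The 16 male wild-type mice fell into 4 groups of 4. All had received an adeno-associated virus of serotype 9 (AAV9) under the skin at postnatal day 1, carrying either GFP (AAV9-GFP) or the long noncoding RNA Cardinal (AAV9-Cardinal) behind the cTNT promoter, which is active in cardiomyocytes. At a body weight of 25 to 30 g the mice then underwent transverse aortic constriction (TAC), which narrows the aorta and puts the left ventricle under pressure, or a sham operation. RNA was taken 4 weeks after surgery, selected for poly(A) tails and sequenced as single reads of 50 bases. Each virus was combined with each operation, so every control heart also carried a virus. The age at surgery is not given in the sources used here.

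Mitochondrial DNA is a small circle that cells hold in many copies. Both of its strands are transcribed as long RNAs by the nuclear-encoded polymerase Polrmt, with the transcription factor Tfam, and the tRNAs that lie between most genes are cut out to release the rRNAs and mRNAs. Most of the mRNAs then receive short poly(A) tails, and the complex of Lrpprc and Slirp stabilises them. The 13 proteins are subunits of 4 of the 5 complexes of oxidative phosphorylation, in which nuclear subunits make up the rest. The heart draws most of its ATP from this system, and mitochondrial transcripts are abundant in cardiac RNA.

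The annotated ends of the 13 protein-coding genes are shown because the poly(A) tail completes the stop codon of some of them. They are gene ends, and the ends of the RNAs were not measured. Each line gives the last 12 bases of the annotated gene, 5′ to 3′ on its own strand (GRCm38, GENCODE M21), with the stop codon or its first base in capitals.
mt-Nd1: ccatacataTAG
mt-Nd2: ctaattaccTAG
mt-Co1: aaagtaaaaTAA
mt-Co2: tcaataattTAA
mt-Atp8: ccccaacaaTAA
mt-Atp6: gataatacaTAA
mt-Co3: gatgaggatctT
mt-Nd3: tgaacagagTAA
mt-Nd4l: ctacaatgcTAA
mt-Nd4: gcctgacaataT
mt-Nd5: aatctcgagTAA
mt-Nd6: actcgagatTAA
mt-Cytb: aattatatccaT
A full stop codon stood at the end of 10 of them, and mt-Co3, mt-Nd4 and mt-Cytb ended in its first T alone. The genes also abut or overlap. mt-Atp8 and mt-Atp6, both subunits of ATP synthase, share 43 bases of the same strand at chrM:7927-7969, with the start codon of mt-Atp6 at its left end.
mt-Atp8 and mt-Atp6: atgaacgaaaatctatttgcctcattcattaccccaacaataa
The reads are longer than this stretch, so a full-length read that touches it also covers bases outside it. How reads that overlap both genes were counted is not given in the sources used here. mt-Nd4l and mt-Nd4 share 7 bases on the same strand, and mt-Nd5 and mt-Nd6 share 14 bases on opposite strands. The use of strand in counting is not given in the sources used here, so reads of mt-Nd6 and of the 8 tRNA genes on the light strand cannot be told apart from antisense RNA.

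Among the tRNA genes, 3 are printed whole, since their counts come up below: mt-Tw, the tryptophan tRNA, which had the smallest adjusted p of the tRNAs after TAC, mt-Tf, the phenylalanine tRNA with the lowest counts of all members, and mt-Td, the aspartate tRNA one of the most variable between mice of 1 group. Capitals mark bases shared with a neighbouring gene, here the last 2 bases of mt-Nd2.
mt-Tw: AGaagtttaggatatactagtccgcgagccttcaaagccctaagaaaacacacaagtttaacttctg
mt-Tf: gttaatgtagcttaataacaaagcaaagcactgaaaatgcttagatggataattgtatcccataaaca
mt-Td: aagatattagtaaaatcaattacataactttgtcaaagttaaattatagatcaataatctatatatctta
They lie at chrM:4950-5016, chrM:1-68 and chrM:6942-7011, all on the plus strand, and their G and C content was 40.3%, 30.9% and 17.1%. With genes of 59 to 75 bases and reads of 50 bases, a count on a tRNA gene does not say whether the read came from the mature tRNA or from a longer precursor.

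Counts per mouse summed to between 16441997 and 21904589. Cardinal itself (Gm12295) was at 18.3 to 93.9 CPM (a gene's count scaled to a fixed library total) in the 8 AAV9-Cardinal hearts and at 3.42 to 7.24 CPM in the 8 AAV9-GFP hearts, and Nppa, a natriuretic peptide gene induced by ventricular load, was at 183 to 1395 CPM in the 8 TAC hearts and at 41.6 to 106 CPM in the 8 sham hearts, so that neither gene overlapped between its labelled groups. CPM here and below are scaled with edgeR's TMM factors, which lay between 0.940 and 0.977 in AAV9-GFP sham hearts and between 1.05 and 1.09 in AAV9-GFP TAC hearts.

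Several members are also present as near copies in nuclear DNA, and the table counted those copies as genes of their own. Transcripts of 16 nuclear genes in the table share at least one stretch of 50 bases, the length of a read, with a mitochondrial gene, and 9 of them share at least 20% of their stretches and average at least 1 CPM. A row of such pseudogenes lies on chromosome 1 within chr1:24611535-24616197. Gm28661, a copy of mt-Co2, held between 0.997 and 1.001 times the counts of mt-Co2 in each of the 16 mice. Gm28437, a copy of mt-Co3, held 1.003 to 1.004 times those of mt-Co3, Gm10222 held 0.986 to 1.002 times those of mt-Nd4l and Gm10925 held 1.014 to 1.022 times those of mt-Atp6. Within each pair the 2 rows therefore carried almost the same number in every mouse. A 50-base stretch from the middle of mt-Co3, at chrM:8974-9023, shows what the 2 loci share, since it is found unaltered in the Gm28437 transcript.
mt-Co3 and Gm28437: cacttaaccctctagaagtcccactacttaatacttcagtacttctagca
Gm29216 matches part of mt-Co1 and Gm28439 part of mt-Nd4, with means of 21455 and 14309.6 CPM, and on chromosome 2 Gm13340 and Gm13341 averaged 27065 and 6499 CPM. How the counting program treated reads with several matches is not given in the sources used here. The 16 nuclear genes together made up 12.6% to 14.3% of all counts, and they weigh in every total below. Of the mRNA genes, mt-Co2 (100% of its stretches), mt-Co3 (99.9%), mt-Atp6 (99.5%), mt-Nd4l (98.8%) and mt-Nd3 (98.0%) are almost wholly shared, mt-Nd4 (62.2%) and mt-Co1 (51.1%) in part, mt-Nd2 (8.19%) and mt-Nd5 (7.61%) in small part, and mt-Nd1, mt-Atp8, mt-Nd6 and mt-Cytb share no such stretch with an annotated nuclear transcript. Nuclear DNA between annotated genes was not searched.

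**Figure D1:**
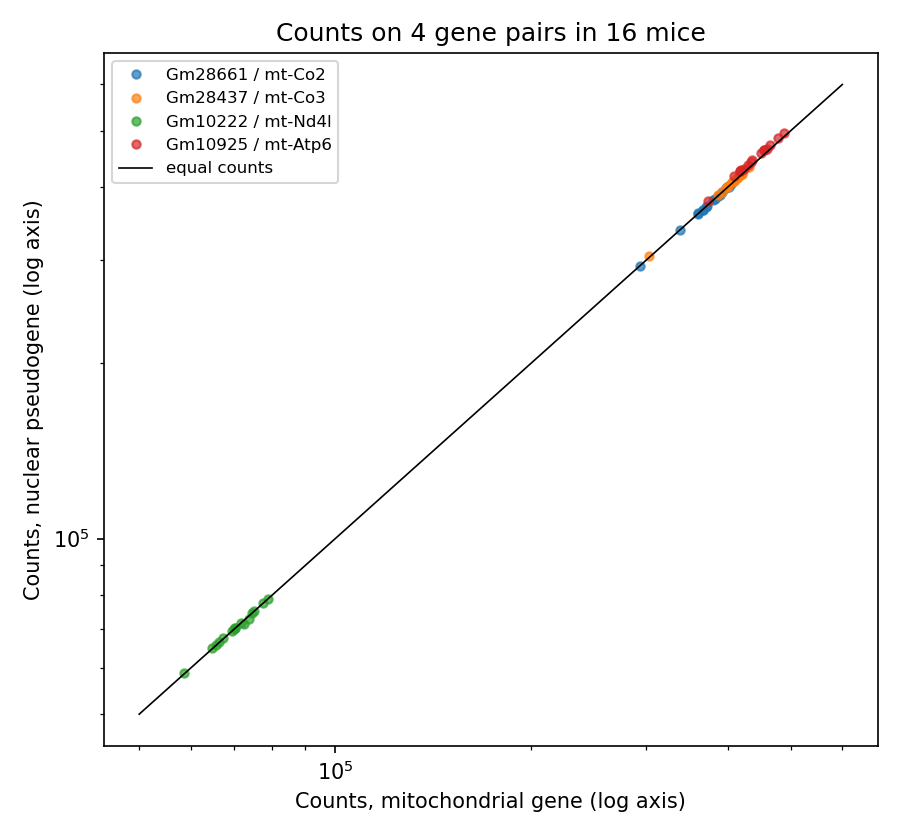
Deposited counts of 4 nuclear pseudogenes (vertical, log axis) against the mitochondrial gene each one copies (horizontal, log axis), one point per mouse and pair, with the line of equal counts. All 64 points lie on or close to the line, at ratios of 0.986 to 1.022.

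Levels differed widely between the members. To compare genes, CPM were divided by gene length in kilobases. After poly(A) selection, levels of mRNAs, rRNAs and tRNAs do not compare their amounts in the tissue. For genes that share stretches with nuclear transcripts, the level and its rank also depend on how reads with several matches were counted. Averaged over the 16 mice, mt-Co1, the catalytic subunit of cytochrome c oxidase, was highest at 51774 CPM per kb, followed by mt-Cytb, the mitochondrial subunit of complex III, at 37408, mt-Nd1 of complex I at 31182 and mt-Atp6 at 30216. mt-Nd3, another complex I subunit, was the lowest mRNA at 5096 CPM per kb. The lone mRNA of the light strand, mt-Nd6, was at 16344. The 2 rRNAs, which carry at most short A tails, were at 2234 (mt-Rnr1, small subunit) and 3115 (mt-Rnr2, large subunit). tRNA genes ran from 35.9 for mt-Tf to 9508 for mt-Ts1, a serine tRNA on the light strand. Of the counts on mitochondrial genes, mt-Co1 took 24.9% on average, mt-Cytb 13.3%, mt-Nd4 10.5% and mt-Nd1 9.29%. Spread between mice depended on the class. The coefficient of variation within a group had a median of 5.06% over the mRNAs (1.90% to 14.4%), 29.3% over the rRNAs (18.7% to 44.2%) and 23.4% over the tRNAs (5.03% to 74.6%).

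**Figure D2:**
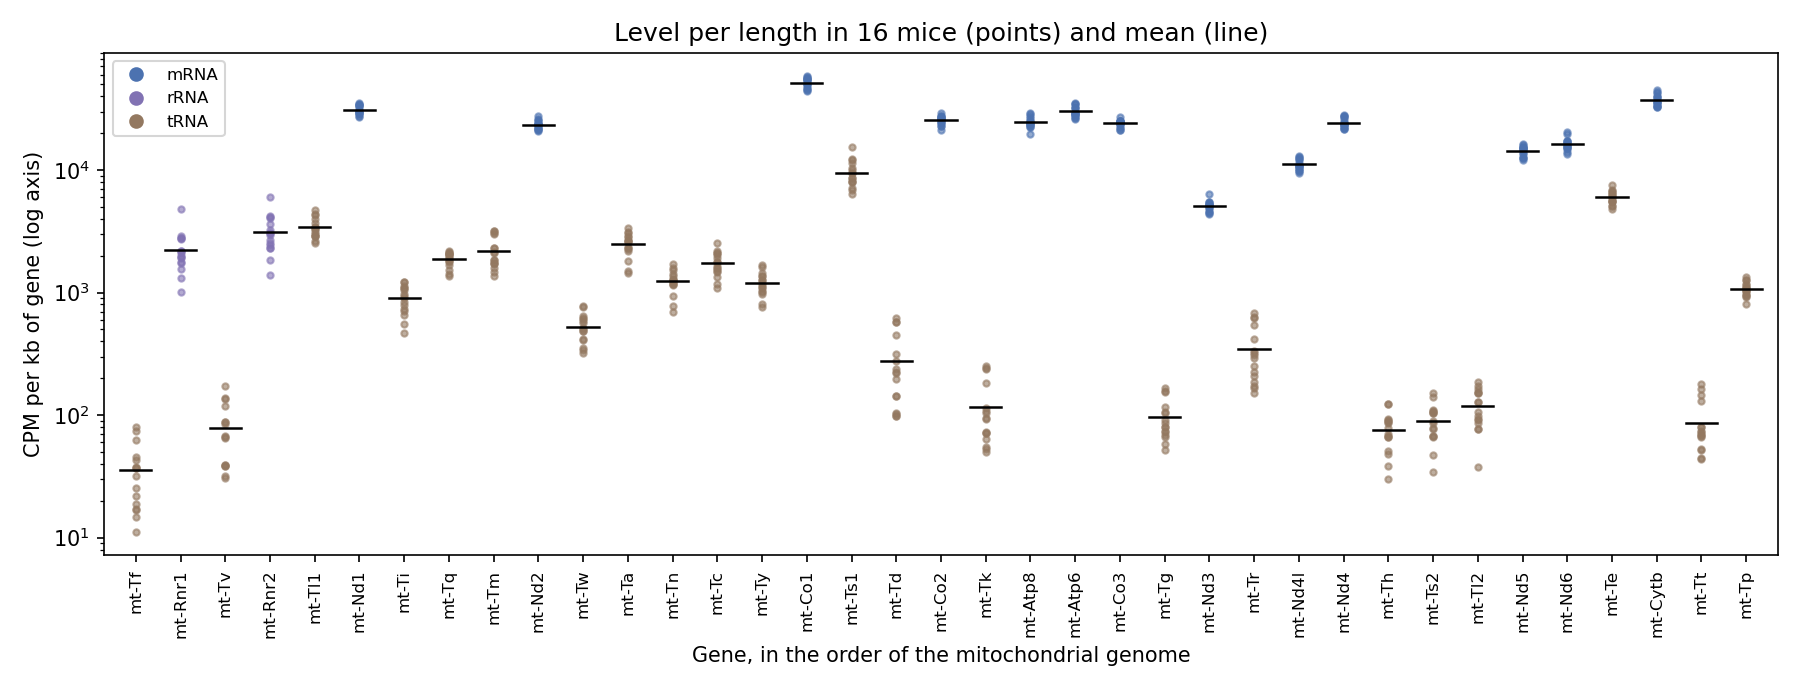
Level per length (CPM per kb, log axis) of the 37 genes in the order of the mitochondrial genome, with one point for each of 16 mice and a line at the mean. The mRNAs lie between means of 5096 and 51774 CPM per kb with little spread, and tRNA genes span the range from 35.9 to 9508.

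A large part of all counts fell on these 37 genes, and their share was smaller after TAC with either virus. In AAV9-GFP sham hearts the share of all counts was 32.8, 33.4, 34.02 and 32.97% (mean 33.3% ± 0.547, SD, n = 4), and in AAV9-GFP TAC hearts it was 30.96, 30.6, 30.5 and 30.3% (30.6% ± 0.262). AAV9-Cardinal sham hearts had 32.2, 32.8, 33.3 and 33.7% (33.0% ± 0.633) and AAV9-Cardinal TAC hearts 31.3, 31.9, 31.6 and 30.97% (31.4% ± 0.395). TAC and sham mice did not overlap in either virus group, with a difference in mean of −2.71 percentage points in AAV9-GFP hearts and −1.57 in AAV9-Cardinal hearts. Between the viruses, the sham groups overlapped, and the TAC groups were barely apart, with 30.965% in the highest AAV9-GFP TAC mouse against 30.969% in the lowest AAV9-Cardinal TAC mouse. The 95% Wilson interval of a mouse's share reached at most 0.0228 percentage points to either side, wider than that gap, and it covers counting error only. The shares are a description and were not tested.

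Almost all of it was mRNA. The RNA had been selected for poly(A) tails, so the shares of the classes are not those in the tissue. The 13 protein-coding genes made up 32.2% ± 0.654 of all counts in sham and 29.9% ± 0.428 in TAC hearts with AAV9-GFP, and 32.1% ± 0.539 in sham and 30.4% ± 0.286 in TAC hearts with AAV9-Cardinal. Of the counts on mitochondrial genes they took 95.2% to 98.3% in every mouse. The rRNA share was 0.580, 0.660, 0.850 and 1.35% in AAV9-GFP sham hearts and 0.338, 0.456, 0.602 and 0.691% in AAV9-GFP TAC hearts, with overlap. It was 0.520, 0.528, 0.880 and 0.643% in AAV9-Cardinal sham and 0.616, 0.927, 0.830 and 0.718% in AAV9-Cardinal TAC hearts, where the mean was higher after TAC. tRNA genes held 0.246% ± 0.0304, 0.202% ± 0.0173, 0.249% ± 0.0172 and 0.225% ± 0.0216 of all counts in these 4 groups, with overlap in every comparison.

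**Figure D3:**
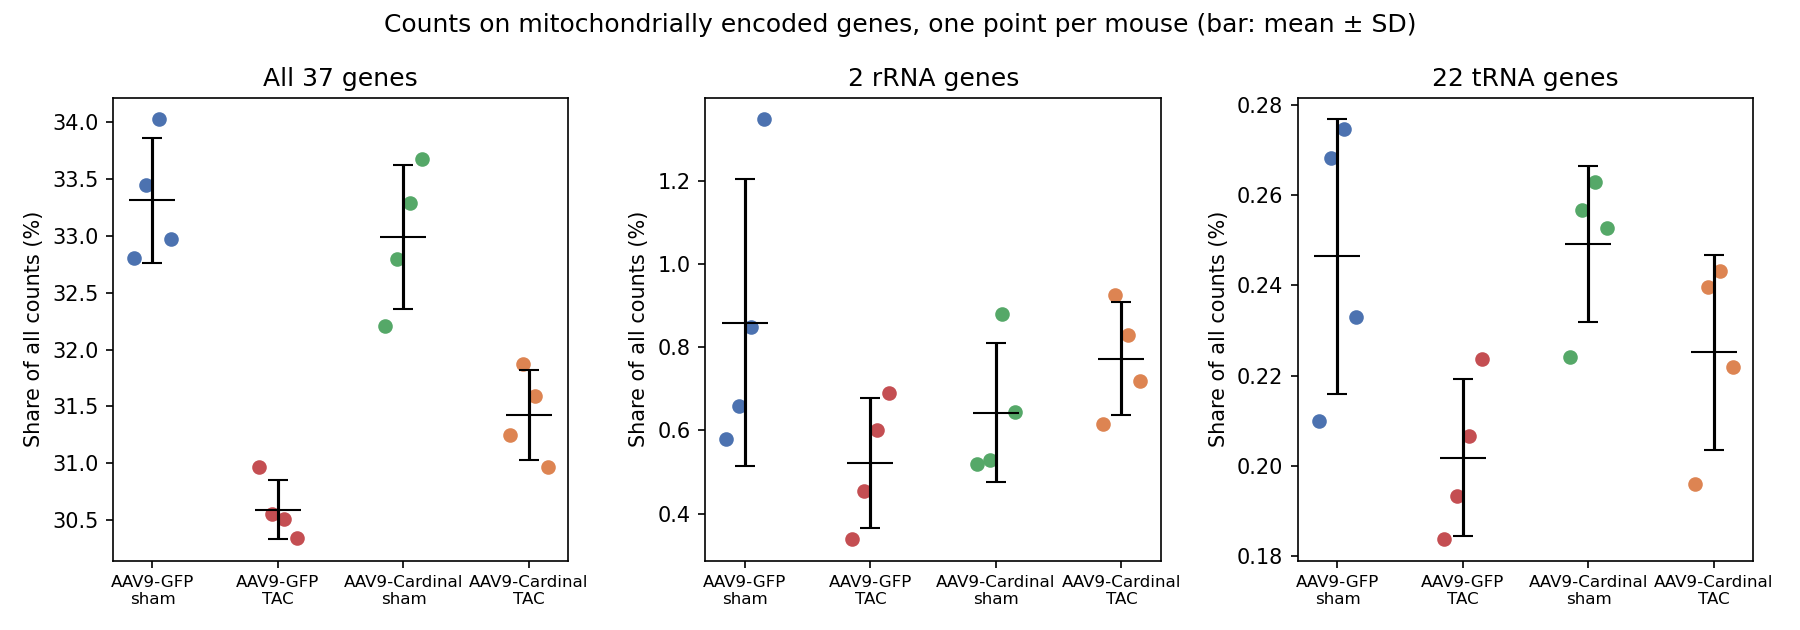
Share of all counts (%) on the 37 mitochondrially encoded genes, on the 2 rRNA genes and on the 22 tRNA genes, one point per mouse with the group mean and SD; the axes do not start at 0. The 8 TAC hearts (30.3% to 31.9%) lie below the 8 sham hearts (32.2% to 34.0%) in the panel of all 37 genes, and the rRNA panel overlaps throughout.

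The first comparison asks how pressure overload alters these transcripts in hearts with the control virus. In AAV9-GFP hearts, 21 of the 37 genes fell after TAC and none rose at an adjusted p under 0.05 (edgeR quasi-likelihood test, Benjamini-Hochberg adjustment over 16857 genes), against 8.92% of all tested genes called lower and 8.49% called higher. The 21 were 11 of the 13 mRNAs, both rRNAs and 8 of the 22 tRNAs. The fitted change was negative for all 37, with a median log2 fold change of −0.43 (−0.58 to −0.33 with a mouse left out) beside 0.0050 over all tested genes, and the mice of the 2 groups did not overlap for 18 genes, all lower, against 10.2% of all genes (10.1% in the higher direction). In bulk tissue, fewer cells of a type and less RNA per cell cannot be told apart. Called mRNAs fell by 0.22 to 0.31 on the log2 scale, the rRNAs by 0.86 and 0.93 and the 8 called tRNAs by 0.37 to 1.54. The 22 tRNA estimates ran from −1.54 to −0.27. The classes were not tested against each other, and the rRNA and tRNA shares of mitochondrial counts overlapped between the groups. In RNA selected for poly(A) tails, counts on rRNA and tRNA genes need not follow their amounts in the tissue.

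All 3 cytochrome c oxidase (complex IV) subunits fell. mt-Co1 stood at 84912, 88412, 85476 and 87480.4 CPM in AAV9-GFP sham hearts and at 68496, 69251, 72624 and 71023 CPM in AAV9-GFP TAC hearts (log2 fold change −0.30 ± 0.043, adjusted p = 0.000278). mt-Co2, which carries the copper centre that receives electrons from cytochrome c, was at 18967, 18539, 19812 and 17620.5 CPM and at 14492, 15510.3, 16606 and 15654 CPM in the same order (log2 fold change −0.27 ± 0.053, adjusted p = 0.00288). mt-Co3, a core subunit without redox centres, went from 19875, 19524, 21095 and 18889 to 16781, 16728, 17513 and 17327 CPM (log2 fold change −0.22 ± 0.037, adjusted p = 0.00114). For each of the 3, every TAC mouse lay below every sham mouse. mt-Cytb carries haem groups of complex III, though not all of them. Its level was 45045, 49799, 48340.1 and 46255 CPM in sham and 41620.1, 37402, 37181 and 37863 CPM in TAC hearts (log2 fold change −0.30 ± 0.063, adjusted p = 0.00417), again without overlap, TAC mouse 1 being the highest of its group.

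Complex I, NADH dehydrogenase, has 7 members, of which 5 fell. Sham hearts had 32821, 32115, 32197 and 28796 CPM of mt-Nd1, a membrane subunit next to the quinone site, and TAC hearts had 26587, 28018, 27549 and 25703 CPM (log2 fold change −0.22 ± 0.053, adjusted p = 0.00899). For mt-Nd2, one of the proton-pumping subunits together with mt-Nd4 and mt-Nd5, the values were 25123, 26076, 28912 and 24432 CPM in sham and 22081, 21448, 22618 and 22331 CPM in TAC hearts (log2 fold change −0.24 ± 0.052, adjusted p = 0.00494). The groups were apart in both genes. mt-Nd4 measured 32249, 35907, 39065 and 37824 CPM and then 32075, 30435, 29634 and 29526 CPM (log2 fold change −0.25 ± 0.062, adjusted p = 0.0106), so that the lowest sham mouse, mouse 1, stood just above the highest TAC mouse. With mt-Nd5 the sham mice reached 27987, 27252, 29236 and 27709.5 CPM and the TAC mice 24957, 21942, 22990.3 and 23215 CPM (log2 fold change −0.27 ± 0.052, adjusted p = 0.0023). mt-Nd4l, the small subunit encoded just ahead of mt-Nd4, had 3419.5, 3576, 3856 and 3658 CPM in sham and 3157, 2823, 2901 and 3037 CPM in TAC hearts (log2 fold change −0.28 ± 0.061, adjusted p = 0.00494). Neither of these 2 showed overlap. The 2 subunits that did not pass were mt-Nd3, with 1797, 1786, 2216 and 1582 CPM in sham and 1598, 1519, 1692 and 1703 CPM in TAC hearts (log2 fold change −0.18 ± 0.083, adjusted p = 0.16), and mt-Nd6 of the light strand, with 8450.2, 7935, 10514 and 8216 CPM in sham and 9026, 7278, 7639 and 8035 CPM in TAC hearts (log2 fold change −0.14 ± 0.10, adjusted p = 0.423). In both the groups overlapped, and sham mouse 3 was the highest.

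Both ATP synthase subunits fell. mt-Atp6, part of the proton channel, was at 21929.8, 23403, 23419.5 and 22432 CPM in sham and 19295, 18226, 18336 and 17804 CPM in TAC hearts (log2 fold change −0.31 ± 0.058, adjusted p = 0.00198), the largest fall among the mRNAs. mt-Atp8, whose end is the stretch printed above, was at 5190.2, 5799.6, 5677 and 5042 CPM in sham and 4544, 4022, 4752 and 4576 CPM in TAC hearts (log2 fold change −0.28 ± 0.068, adjusted p = 0.0106). No TAC mouse reached a sham mouse in either gene. By their sharing with annotated nuclear transcripts, the 4 mRNAs that share no stretch had a median log2 fold change of −0.25, the 5 shared almost wholly −0.27 and the 4 shared in part −0.26. Copies in nuclear DNA outside annotated transcripts were not searched, so the 4 may have such copies.

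Both rRNAs passed the test. mt-Rnr1 was at 1904, 2087, 2645 and 4616 CPM in AAV9-GFP sham and 971, 1268, 1815 and 1865 CPM in AAV9-GFP TAC hearts (log2 fold change −0.93 ± 0.28, adjusted p = 0.0342), and mt-Rnr2 at 4029, 4815, 6389.6 and 9566 CPM in sham and 2187, 2915, 3898 and 4659 CPM in TAC hearts (log2 fold change −0.86 ± 0.28, adjusted p = 0.0453). Sham mouse 4 stood far above the rest in both rRNAs, and the groups overlapped in mt-Rnr2 alone. Without that mouse neither passed, at −0.58 for mt-Rnr1 and −0.57 for mt-Rnr2. The call was lost in 6 of 19 alternatives for mt-Rnr1 and in 9 of 19 for mt-Rnr2, among them those without AAV9-GFP sham mouse 3, TAC mouse 1 or TAC mouse 3, and for mt-Rnr2 also without TAC mouse 4. Among the tRNAs, mt-Tw was at 33.6, 37.6, 51.6 and 40.5 CPM in sham and 21.6, 22.6, 23.6 and 27.7 CPM in TAC hearts (log2 fold change −0.77 ± 0.17, adjusted p = 0.00588), without overlap. It was the tRNA with the smallest adjusted p. mt-Tl1, the leucine tRNA that follows the rRNAs, had 246, 353, 301 and 257 CPM in sham and 190.1, 197, 224 and 233 CPM in TAC hearts (log2 fold change −0.45 ± 0.15, adjusted p = 0.0455). For mt-Tf the counts were small, 2.50, 4.22, 5.04 and 2.15 CPM in sham and 1.28, 0.754, 1.01 and 1.74 CPM in TAC hearts (log2 fold change −1.54 ± 0.46, adjusted p = 0.0318). In mt-Tl1 and mt-Tf the groups were apart.

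On the light strand 3 tRNAs passed. The alanine tRNA mt-Ta had 180.2, 185, 231 and 183 CPM in sham and 104, 99.6, 158 and 157 CPM in TAC hearts (log2 fold change −0.59 ± 0.18, adjusted p = 0.0369), and the asparagine tRNA mt-Tn 88.6, 96.5, 122 and 89.4 CPM in sham and 49.4, 55.3, 82.2 and 83.5 CPM in TAC hearts (log2 fold change −0.55 ± 0.18, adjusted p = 0.0469). TAC mice 1 and 3 were the low ones in both, and neither gene overlapped. The glutamine tRNA mt-Tq was at 131, 147, 143 and 147 CPM in sham and 96.7, 99.8, 109 and 135 CPM in TAC hearts (log2 fold change −0.37 ± 0.10, adjusted p = 0.0244), where TAC mouse 7 passed the lowest sham mouse. The methionine tRNA mt-Tm, on the heavy-strand transcript, measured 121, 208, 218 and 159 CPM in sham and 109.9, 93.5, 102 and 126 CPM in TAC hearts (log2 fold change −0.71 ± 0.21, adjusted p = 0.0283), and the glycine tRNA mt-Tg 7.04, 10.7, 10.4 and 5.91 CPM in sham and 4.92, 3.56, 3.98 and 6.17 CPM in TAC hearts (log2 fold change −0.87 ± 0.28, adjusted p = 0.0454), both with overlap through TAC mouse 7. Of the called tRNAs, mt-Tw lost its call in 0 of 19 alternatives. The call was lost in 11 for mt-Tl1 and mt-Tg, 9 for mt-Tn, 8 for mt-Ta and mt-Tf, and 7 for mt-Tm and mt-Tq. The other 14 tRNAs did not pass, with log2 fold changes from −1.54 (mt-Td, adjusted p = 0.0605) to −0.27 (mt-Tp, adjusted p = 0.130). The estimates were −1.54 ± 0.54 for mt-Td, −1.22 ± 0.47 for mt-Tv, −1.18 ± 0.47 for mt-Tk, −1.17 ± 0.42 for mt-Tr, −0.98 ± 0.37 for mt-Tt, −0.81 ± 0.32 for mt-Th and −0.80 ± 0.31 for mt-Tl2. For the rest they were −0.63 ± 0.33 for mt-Ts2, −0.53 ± 0.23 for mt-Ti, −0.43 ± 0.19 for mt-Ty, −0.41 ± 0.20 for mt-Tc, −0.38 ± 0.19 for mt-Ts1, −0.28 ± 0.096 for mt-Te and −0.27 ± 0.12 for mt-Tp. One of these 14, the valine tRNA mt-Tv, showed no overlap (log2 fold change −1.22 ± 0.47, adjusted p = 0.0912).

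Scaling moved this count. With library totals alone and no TMM factors, the median of all genes moved to a log2 fold change of 0.16 and that of the members to −0.27, and 7 members were called: mt-Co1, mt-Cytb, mt-Atp6, mt-Rnr1, mt-Tf, mt-Tm and mt-Tw. Of all genes, 4220 were then called higher and 683 lower, in place of 1431 and 1503. Relative to the median of all genes the members lay at −0.44 under either scaling, and the one member whose sign turned was mt-Nd6. Without AAV9-GFP sham mouse 3, and likewise without AAV9-GFP TAC mouse 3, 12 members were called, among them the 11 mRNAs called with all mice.

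**Figure D4:**
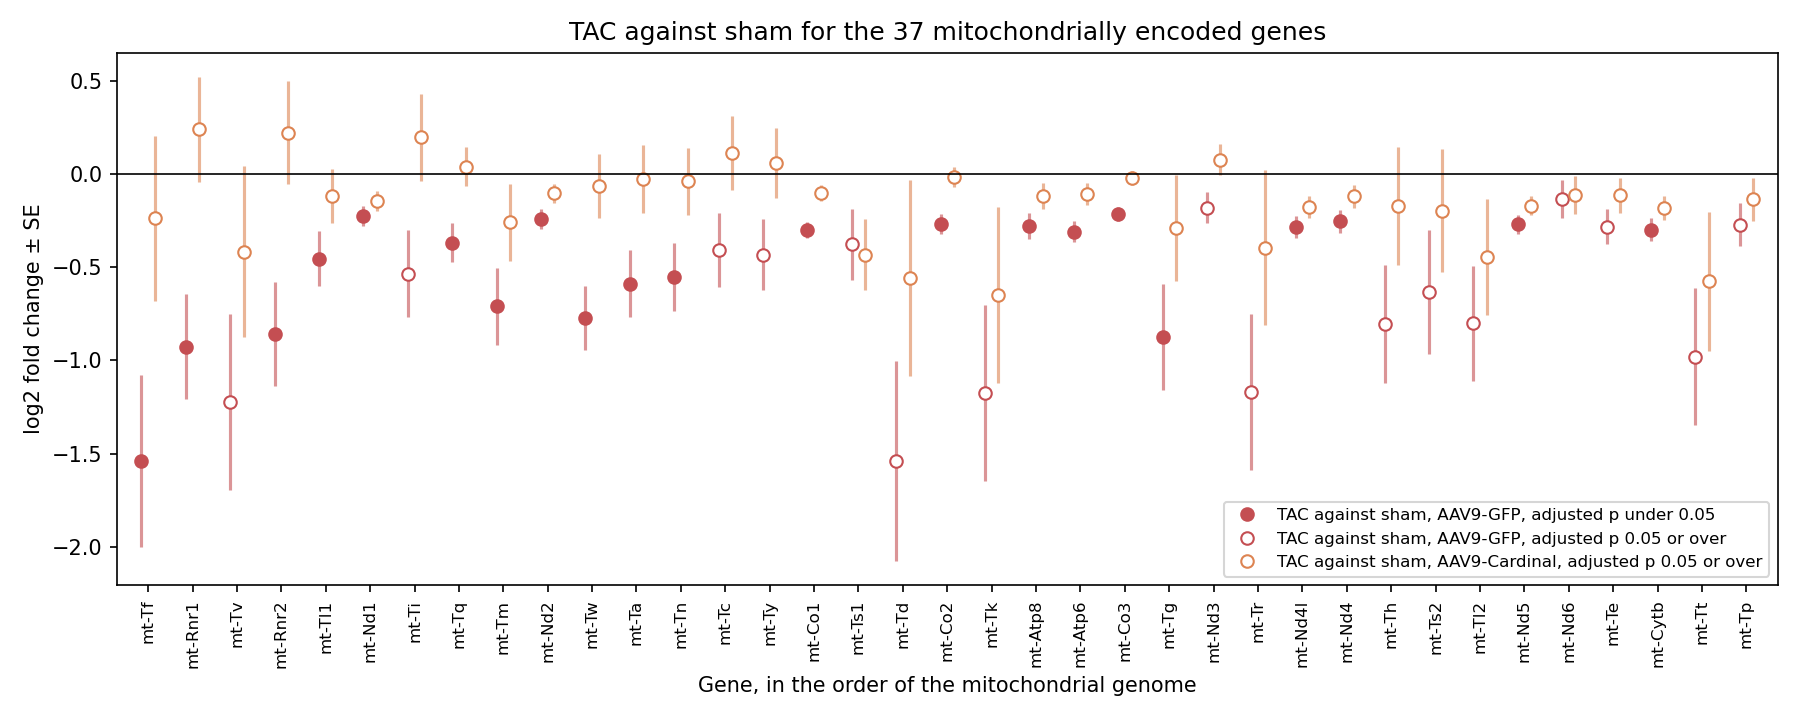
Log2 fold change of TAC against sham (± SE) for each gene in genome order, for AAV9-GFP hearts and for AAV9-Cardinal hearts, with filled points where the adjusted p was under 0.05. In AAV9-GFP hearts all 37 points lie below 0 and 21 are filled, and in AAV9-Cardinal hearts 30 lie below 0 and none is filled.

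The second comparison puts the same question to hearts with added Cardinal. None of the 37 passed the test in AAV9-Cardinal hearts with edgeR, where 3.38% of all tested genes were called lower and 3.1% higher. At an unadjusted p under 0.05 there were 6, and DESeq2 called 1, mt-Nd5, as lower. Of the 30343 genes it fitted, DESeq2 called 703 higher and 699 lower. The members' median log2 fold change was −0.12 (−0.15 to −0.075 with a mouse left out, nearest to 0 without AAV9-Cardinal sham mouse 3) beside −0.00048 over all genes, and 30 of the 37 were negative (24 to 34 over the alternative settings). Without TMM factors 706 genes were called higher and 365 lower, in place of 522 and 570. Mice did not overlap for 2 members, both lower, against 7.21% of all genes (6.51% higher). The smallest p belonged to mt-Nd5, with 27608, 29503, 28074 and 27416 CPM in AAV9-Cardinal sham and 22755, 26297, 26604 and 24503 CPM in AAV9-Cardinal TAC hearts (log2 fold change −0.17 ± 0.052, adjusted p = 0.0647), and to mt-Cytb, with 40667, 43814, 45142 and 51704 CPM in sham and 38383, 41136, 40986 and 39383 CPM in TAC hearts (log2 fold change −0.18 ± 0.062, adjusted p = 0.1). mt-Nd4l came next at 3231, 3260.2, 3717 and 3802 CPM in sham and 2905, 3037, 3227 and 3229 CPM in TAC hearts (log2 fold change −0.18 ± 0.061, adjusted p = 0.102). The groups were apart in mt-Nd5 and mt-Nd4l and overlapped in mt-Cytb.

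Among the complex IV subunits, mt-Co1 was at 84369 ± 5037 CPM in AAV9-Cardinal sham and 78678 ± 3206 CPM in AAV9-Cardinal TAC hearts (mean ± SD, n = 4, log2 fold change −0.10 ± 0.043, adjusted p = 0.182), while estimates were nearer 0 for mt-Co2 (log2 fold change −0.015 ± 0.053, adjusted p = 0.914) and mt-Co3 (log2 fold change −0.02 ± 0.037, adjusted p = 0.83). No test compared the 3 with each other. By sharing with annotated nuclear transcripts, the 4 mRNAs that share no stretch had a median of −0.13 here. The 5 shared almost wholly had −0.020 and the 4 shared in part −0.11, and these sets were not tested against each other. Estimates for both rRNAs were above 0, at 0.24 ± 0.28 and 0.22 ± 0.28, within their error. The 22 tRNAs ran from −0.65 ± 0.47 (mt-Tk) to 0.20 ± 0.23 (mt-Ti), and the lowest adjusted p among them was 0.196 (mt-Ts1).

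Setting AAV9-Cardinal TAC hearts against AAV9-GFP TAC hearts asks whether added Cardinal alters these transcripts under load. edgeR called none of the 37, with 0.0237% of all tested genes called higher and 0.0771% lower, and 12 members were at an unadjusted p under 0.05. DESeq2 called 5 higher: mt-Co1, mt-Co2, mt-Co3, mt-Tw and mt-Tq. The mRNAs among them, mt-Co1, mt-Co2 and mt-Co3, share 51.1%, 100% and 99.9% of their stretches with annotated nuclear transcripts. No mRNA without such stretches was called. Of the 30343 genes it fitted, DESeq2 called 281 higher and 163 lower. All 37 estimates were above 0, though over the alternative settings 0 to 6 were below it, 4 without TMM factors. Their median was 0.25 beside −0.0065 over all genes, and 0.163 to 0.303 with a mouse left out, lowest without AAV9-GFP TAC mouse 3. Mice did not overlap for 7 members, all higher, against 3.58% of all genes (3.19% lower). mt-Co3 was closest to the threshold, at 16781, 16728, 17513 and 17327 CPM in AAV9-GFP TAC and 18580.2, 19592, 19207 and 18793 CPM in AAV9-Cardinal TAC hearts (log2 fold change 0.16 ± 0.037, adjusted p = 0.0857). mt-Co1 had 68496, 69251, 72624 and 71023 CPM in AAV9-GFP TAC and 74960.4, 82704, 79134 and 77912 CPM in AAV9-Cardinal TAC hearts (log2 fold change 0.16 ± 0.043, adjusted p = 0.105), and mt-Tw 21.6, 22.6, 23.6 and 27.7 CPM with AAV9-GFP and 32.3, 41.7, 39.6 and 34.1 CPM with AAV9-Cardinal (log2 fold change 0.63 ± 0.17, adjusted p = 0.11). In each of the 3 the groups were apart. Without AAV9-Cardinal TAC mouse 1, edgeR called 3 members, mt-Co1, mt-Co3 and mt-Tq.

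No difference between the viruses was detected in sham hearts. None of the 37 passed with edgeR, none was at an unadjusted p under 0.05 with edgeR, and DESeq2 also called none, where 0.00593% of all tested genes were called higher and 0.00593% lower. The median log2 fold change of the members was −0.081 beside −9.69e-05 and ran from −0.18 to −0.020 with a mouse left out, at −0.020 without AAV9-GFP sham mouse 3, and for AAV9-Cardinal sham mice 1 to 4 at −0.049, −0.032, −0.18 and −0.13. It was −0.12 without AAV9-GFP sham mouse 4. Here no member was free of overlap, and 1.2% of all genes were so in the higher and 1.16% in the lower direction. The 3 smallest p belonged to mt-Rnr1 (log2 fold change −0.53 ± 0.28, adjusted p = 1), mt-Atp6 (log2 fold change −0.10 ± 0.058, adjusted p = 1) and mt-Rnr2 (log2 fold change −0.41 ± 0.28, adjusted p = 1). mt-Rnr1 measured 1904, 2087, 2645 and 4616 CPM in AAV9-GFP sham and 1474, 1693, 2616 and 1998 CPM in AAV9-Cardinal sham hearts, mt-Atp6 21929.8, 23403, 23419.5 and 22432 CPM with AAV9-GFP and 19697, 19433, 21857 and 24207 CPM with AAV9-Cardinal, and mt-Rnr2 4029, 4815, 6389.6 and 9566 CPM with AAV9-GFP and 3623, 3646, 6515 and 4859 CPM with AAV9-Cardinal, with overlap in all 3.

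The 2 TAC responses were then compared as such, by the interaction of surgery and virus. Here too edgeR called none of the 37 (0.0119% of all tested genes), with 11 at an unadjusted p under 0.05 and 3 called by DESeq2, mt-Co1, mt-Co2 and mt-Co3. Of the 30343 genes it fitted, DESeq2 called 125 higher and 21 lower. A fall in AAV9-GFP hearts that passed the test and one in AAV9-Cardinal hearts that did not are therefore not shown to differ with edgeR. The estimate, as the AAV9-Cardinal response minus the AAV9-GFP response, was above 0 for 36 of the 37 and below it for 6 without TMM factors, with a median of 0.40 beside −0.00068 over all genes. With a mouse left out the median was 0.26 to 0.45, and it was 0.26 without AAV9-Cardinal sham mouse 2 or AAV9-Cardinal TAC mouse 1. It was 0.20 ± 0.053 for mt-Co3 (adjusted p = 0.302), 0.25 ± 0.075 for mt-Co2 (0.309) and 0.20 ± 0.061 for mt-Co1 (0.319), and for the rRNAs 1.17 ± 0.40 and 1.08 ± 0.39.

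Several tRNA genes were high in the same 4 sham mice, 2 of each virus group. mt-Td, the A- and T-rich sequence printed above, was at 13.8, 43.5, 40.6 and 19.5 CPM in AAV9-GFP sham, 10.1, 6.92, 6.86 and 16.6 in AAV9-GFP TAC, 9.98, 7.10, 40.6 and 31.6 in AAV9-Cardinal sham and 7.29, 15.8, 15.3 and 22.03 CPM in AAV9-Cardinal TAC hearts. mt-Tr, the arginine tRNA, was at 19.9, 46.6, 42.2 and 22.7 CPM in sham and 15.3, 10.2, 11.8 and 21.1 CPM in TAC hearts with AAV9-GFP, and at 14.1, 11.4, 43.2 and 36.9 CPM in sham and 12.6, 17.0, 21.8 and 28.6 CPM in TAC hearts with AAV9-Cardinal. In both, AAV9-GFP sham mice 2 and 3 and AAV9-Cardinal sham mice 3 and 4 were the 4 highest of 16, and the same 4 mice were the highest for mt-Tv, mt-Tl1, mt-Tm, mt-Tk, mt-Tg and mt-Tt. Of these 8 tRNAs, mt-Tl1, mt-Tm and mt-Tg passed the test in AAV9-GFP hearts. The light-strand mt-Ts1 had another order, with AAV9-Cardinal sham mouse 2 highest in a group of 590.5, 1068, 652 and 841 CPM. Whether extraction or library preparation had a part in this was not tested.

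**Figure D5:**
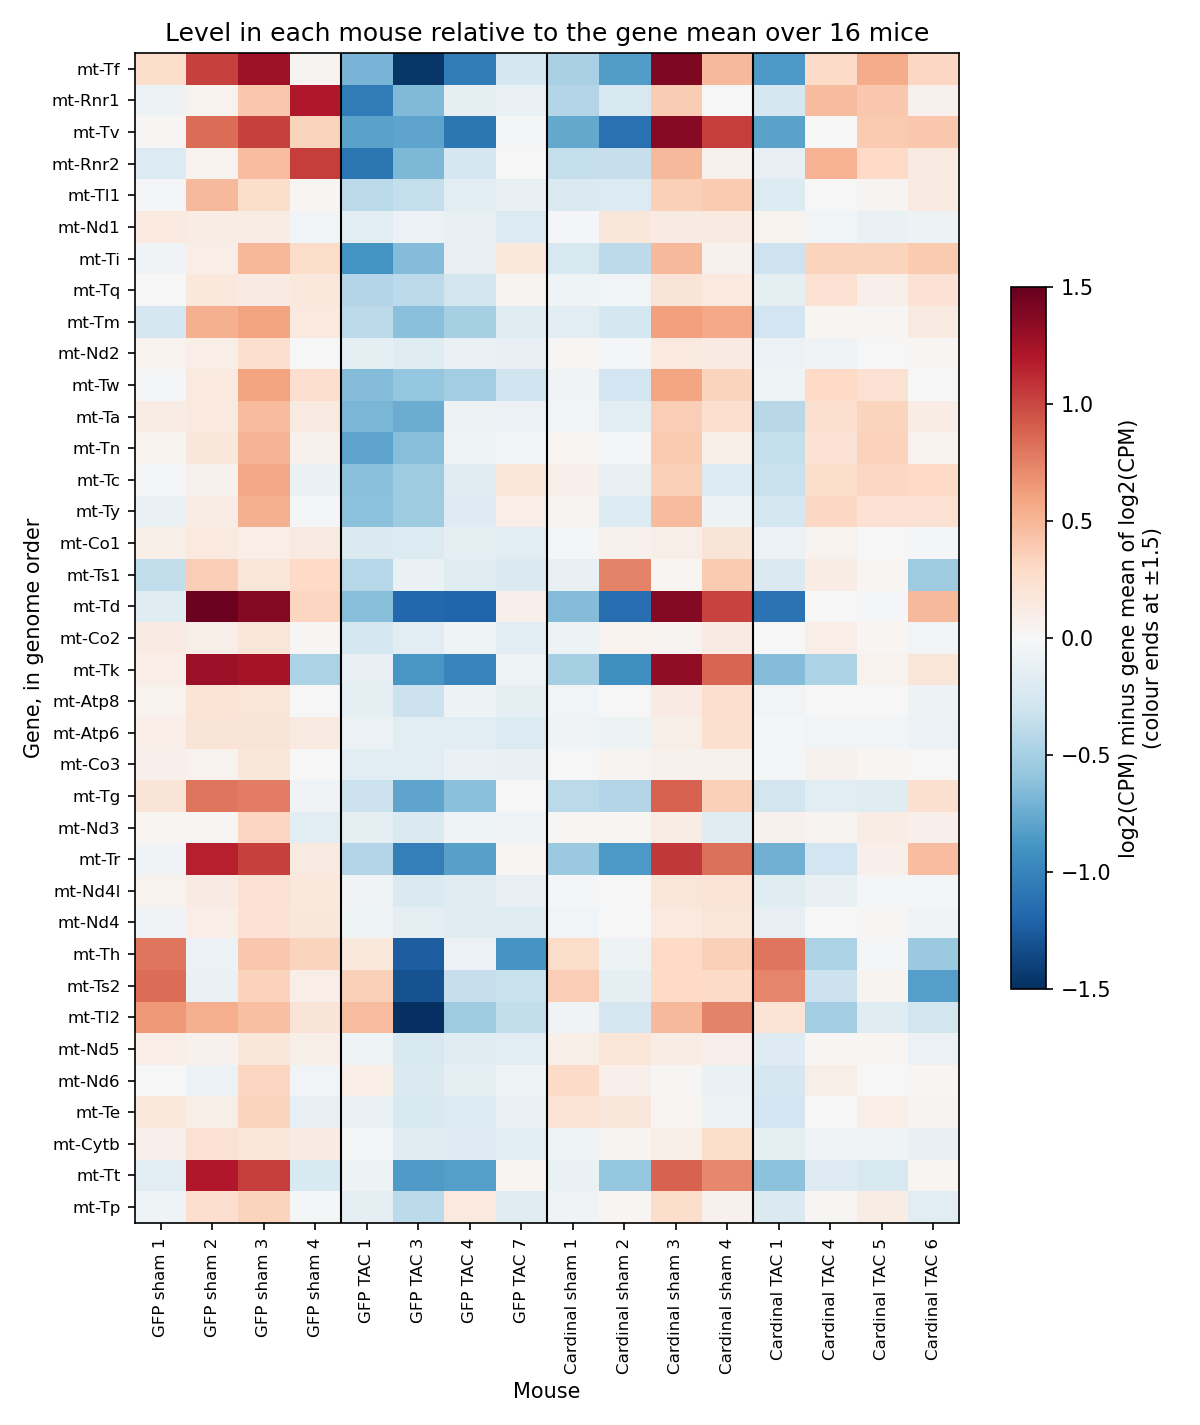
Level of each gene in each mouse as log2(CPM) minus the gene's mean over the 16 mice, genes in genome order and mice by group, with the colour scale ending at ±1.5. mRNA rows are pale throughout, and in the rows of mt-Td, mt-Tk, mt-Tr and mt-Tt the AAV9-GFP sham mice 2 and 3 and the AAV9-Cardinal sham mice 3 and 4 stand out as high.

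The nuclear partners of these subunits moved in the same direction in AAV9-GFP hearts. Of 76 tested nuclear genes for subunits of the 5 complexes, 58 fell after TAC and none rose, against 8.92% of all tested genes that fell, with a median log2 fold change of −0.26: 23 of 36 in complex I, 4 of 4 in complex II, which has no mitochondrially encoded subunit, 8 of 9 in complex III, 12 of 13 in complex IV and 11 of 14 in ATP synthase. The 4 with the largest change were Cox7a1, a heart and muscle subunit of complex IV, at 262 ± 22.9 CPM in sham and 174 ± 13.2 CPM in TAC hearts (mean ± SD, n = 4, log2 fold change −0.59 ± 0.086, adjusted p = 0.000312), Sdhc and Sdha, the membrane anchor and the flavoprotein of complex II, at 289 ± 5.42 and 203 ± 3.99 CPM (log2 fold change −0.51 ± 0.068, adjusted p = 0.000153) and at 1105 ± 8.67 and 784 ± 58.4 CPM (log2 fold change −0.50 ± 0.058, adjusted p = 6.08e-05), and Ndufa5 of complex I at 251 ± 18.3 and 184 ± 17.9 CPM (log2 fold change −0.45 ± 0.096, adjusted p = 0.00477). In AAV9-Cardinal hearts none of the 76 passed with edgeR, at a median of −0.043, with 7 at an unadjusted p under 0.05 and 3 called lower by DESeq2, beside 699 of all 30343 genes. Between the viruses in TAC hearts edgeR called none, at a median of 0.13, with 35 at an unadjusted p under 0.05 and 14 called higher by DESeq2, beside 281 of all 30343 genes. The difference of the TAC responses had a median of 0.21, with none called by edgeR, 47 at an unadjusted p under 0.05 and 15 called higher by DESeq2, beside 125 of all 30343 genes. In sham hearts neither tool called any of the 76, 4 were at an unadjusted p under 0.05, and the median was −0.075.

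Among the nuclear genes that transcribe, process and stabilise mitochondrial RNA, the share that fell in AAV9-GFP hearts was near that of all tested genes. Of 51 tested, 5 fell and 1 rose in AAV9-GFP hearts, where 8.92% of all tested genes fell and 8.49% rose, with a median log2 fold change of −0.048. Mgme1, a nuclease of mitochondrial DNA maintenance, was at 13.03 ± 1.53 CPM in sham and 9.31 ± 1.16 CPM in TAC hearts (log2 fold change −0.49 ± 0.11, adjusted p = 0.00554). Hsd17b10, a subunit of the RNase P that cuts tRNA 5′ ends, was at 68.6 ± 1.53 and 53.2 ± 2.07 CPM (log2 fold change −0.37 ± 0.069, adjusted p = 0.00205), and Rpusd4, a pseudouridine synthase of mitochondrial RNA, at 7.87 ± 0.325 and 6.38 ± 0.212 CPM (log2 fold change −0.30 ± 0.099, adjusted p = 0.0456). Rexo2, which degrades short RNA fragments, was the one that rose, from 28.3 ± 1.21 to 33.4 ± 2.95 CPM (log2 fold change 0.24 ± 0.061, adjusted p = 0.0141). Lrpprc, which stabilises the mitochondrial mRNAs, was also among the 5 that fell, at 158 ± 8.12 CPM in sham and 141 ± 9.34 CPM in TAC hearts (log2 fold change −0.17 ± 0.053, adjusted p = 0.038). It is not one of the 4 with the largest change and was added here after its values were seen. DESeq2 called 3 lower and 1 higher, beside 1500 lower and 1436 higher of all 30343 genes. In the other 4 comparisons neither tool called any of the 51, with 7 at an unadjusted p under 0.05 in AAV9-Cardinal TAC against sham, 6 between the viruses in TAC hearts, 1 in sham hearts and 3 for the difference of the TAC responses. For AAV9-Cardinal TAC against sham the log2 fold changes were 0.023 ± 0.065 for Tfam, 0.0011 ± 0.087 for Polrmt, −0.11 ± 0.053 for Lrpprc and −0.057 ± 0.092 for Slirp. Between the viruses they were −0.025 ± 0.065 for Tfam, −0.029 ± 0.086 for Polrmt, 0.15 ± 0.053 for Lrpprc and −0.17 ± 0.091 for Slirp in TAC hearts and 0.082 ± 0.065 for Tfam, 0.038 ± 0.087 for Polrmt, 0.083 ± 0.053 for Lrpprc and −0.13 ± 0.092 for Slirp in sham hearts.

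Some markers of the heart's cell types moved in AAV9-GFP hearts after TAC, and others of the same types were not called. The 12 cardiomyocyte markers summed to 67175 to 70500.3 CPM in AAV9-GFP sham and 51597 to 60673 CPM in AAV9-GFP TAC hearts, where 7 of the 12 fell. They summed to 64619.8 to 70451 and 60624 to 67354 CPM in AAV9-Cardinal sham and TAC hearts, where 2 fell. The 8 fibroblast markers summed to 519 to 587 CPM in AAV9-GFP sham and 903 to 1168 CPM in AAV9-GFP TAC hearts, with 5 called higher, and to 504 to 563 and 529 to 989.5 CPM in AAV9-Cardinal sham and TAC hearts, with 1 called higher. The cardiomyocyte markers not called in AAV9-GFP hearts were Actc1, Myl3, Mb, Ttn and Ckm. The fibroblast markers not called there were Dcn, Pdgfra and Tcf21. In AAV9-GFP hearts, 2 of 6 endothelial, 2 of 7 macrophage and 1 of 6 mural markers were called higher, and none of 5 red cell markers was called by edgeR or DESeq2. Over all tested genes edgeR called 8.49% higher and 8.92% lower in AAV9-GFP hearts. The shares were 3.1% higher and 3.38% lower in AAV9-Cardinal hearts. The sums of the lymphocyte and adipocyte markers were at most 0.898 and 0.796 CPM in any mouse, too low to be tested. Between the viruses in TAC hearts edgeR called none of the 45 tested markers, 18 were at an unadjusted p under 0.05, and DESeq2 called 6 of the 12 cardiomyocyte markers higher and 3 of the 8 fibroblast markers lower. Of the 30343 genes it fitted, DESeq2 called 281 higher and 163 lower there. For the difference of the TAC responses edgeR also called none, 9 were at an unadjusted p under 0.05, and DESeq2 called 2 cardiomyocyte markers higher and 2 fibroblast markers lower, beside 125 higher and 21 lower of the 30343 genes. The part of cell make-up in the fall of the mitochondrial genes, or in their differences between the viruses, was not tested.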

How the data were processed

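RNA from the heart apex of 16 mice, 4 in each of 4 groups, was sequenced after poly(A) selection. The authors deposited whole-number read counts per Ensembl gene in 1 table for all samples. The submitters' processing notes name FastQC, HISAT2 2.1.0, edgeR 3.26.1 and GRCm38. The counting program, its annotation, its use of strand and its treatment of reads with several matches are not given in the sources used here. Every count column carried a sample's label, and groups came from the labels.

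Here, identifiers were matched to GENCODE M21, which named 55394 of the 55573 genes. Genes passing edgeR's filterByExpr over the 4 groups were fitted with TMM factors and the quasi-likelihood test (edgeR 4.0.16, R 4.3.3) on all 16 mice, with Benjamini-Hochberg adjustment over all 16857 genes tested and a threshold of 0.05. The fit was tested on simulated data. Standard errors are the absolute log2 fold change divided by the square root of the F statistic. CPM use the TMM-scaled totals. A count of 3 corresponded to 0.137 to 0.182 CPM. The 24 pairs of mice within groups differed by 5.10 to 14.9 times the sampling variance, so none was the same library sequenced again. The check cannot tell separate libraries of the same mouse from libraries of different mice. The labels number the mice of each group but do not state how they were drawn, and p-values measure the spread between these samples.

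Values per mouse are given for members past the threshold or, where none passed, for the 3 with the smallest unadjusted p. Counts at an unadjusted p under 0.05 are given without the share over all genes and are not calls. From the lists of nuclear genes at most 4 are named per comparison, those with the largest change among those that passed, otherwise Tfam, Polrmt, Lrpprc and Slirp. Annotated transcripts of nuclear genes, not the nuclear genome, were searched for 50-base stretches of the mitochondrial transcripts on either strand. The members and all gene lists were chosen with earlier results of these data known. Alternatives were DESeq2 1.42.0, other normalization, filters and samples, a robust spread, a GC offset, the replicate number as a block, other share definitions and each mouse left out. Leaving out the mitochondria-like nuclear genes was added after seeing the data.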

Additional observations from a re-analysis of the deposited data

Results flagged for a closer look

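Among 152 sets of 4 mice (each member, and the share, in each group), 5 held a mouse whose distance from the nearest other exceeded the 95% critical value of Dixon's test, as a part of the range of its group, where chance gives 7.6. In AAV9-GFP sham hearts, mouse 3 had 231 CPM of the alanine tRNA mt-Ta, against 180.2 to 185 CPM in the other 3. In AAV9-GFP TAC hearts, mouse 1 had 41600 CPM of mt-Cytb, the complex III subunit, against 37200 to 37900 CPM. AAV9-Cardinal TAC mouse 1 had 48.5 CPM of the isoleucine tRNA mt-Ti, against 75.5 to 78.4 CPM, and 89.0 CPM of the cysteine tRNA mt-Tc, against 134 to 139 CPM. AAV9-Cardinal TAC mouse 6 had 7.27 CPM of the glycine tRNA mt-Tg, against 5.08 to 5.45 CPM.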

How the results depend on the processing

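No direction of a called result reversed under any alternative. Of the 37 members, the 21 called in AAV9-GFP hearts became 7 without TMM factors, 13 with the replicate block and GC offset, and 12 to 22 with a mouse left out, 12 without AAV9-GFP sham mouse 3 or AAV9-GFP TAC mouse 3. The 11 mRNAs were called in all 16 fits with a mouse left out, but 8 of them with the replicate block, 5 with the block and GC offset, and 3 without TMM factors. With the replicate block alone 16 members were called, 14 of them among the 21. Mice numbered 1 correlated by 0.103 to 0.211 in all 4 comparisons and other same-numbered mice by −0.0404 to 0.0897, so the numbers were not taken as pairs, which needed every pair over 0.1. The block called none in the other comparisons. Mice 5 and 6 of AAV9-Cardinal TAC and mouse 7 of AAV9-GFP TAC had numbers found in no other group. With the block, each was fitted by itself and added nothing to the comparisons of its group. Counts with the block therefore rest on fewer mice, and they do not show whether the numbers matter. In AAV9-Cardinal hearts, where edgeR called 0, DESeq2 and the GC offset each called 1, mt-Nd5, and leaving out a mouse gave 0 to 1, mt-Cytb without AAV9-Cardinal sham mouse 1. Between the viruses in TAC hearts DESeq2 called 5 and leaving out a mouse 0 to 3, and for the difference of the TAC responses DESeq2 called 3. The cause of these shifts was not tested. The share of all counts differed between TAC and sham in AAV9-GFP hearts by −3.66 points over protein-coding genes, −3.82 without the 10 most abundant nuclear genes or with the mitochondria-like nuclear genes added, and −3.61 with these left out, against −2.71, and by −2.88 to −2.48 with a mouse left out. With a mouse left out the difference in AAV9-Cardinal hearts was −1.83 to −1.34, and between the viruses 0.677 to 0.978 in TAC and −0.547 to −0.0595 in sham hearts. Between the viruses in TAC hearts it was 1.30 without the 10 most abundant nuclear genes and 1.30 with the mitochondria-like genes added, against 0.827. The difference of the TAC responses was 1.15 points, 1.67 over protein-coding genes, 0.658 for the 13 mRNA genes, 1.76 without the 10 most abundant nuclear genes, 1.90 with and 1.64 without the mitochondria-like genes, and 0.886 to 1.37 with a mouse left out. Over all genes, calls in AAV9-GFP hearts numbered 2934, 1431 higher and 1503 lower, and without TMM factors 4903, 4220 higher and 683 lower. In AAV9-Cardinal hearts 1092 became 615 without a filter and 31 with the block, 32 with the GC offset too. Between the viruses in TAC hearts 17 became 444 with DESeq2, 76 without TMM factors, 37 at a mean of at least 1 CPM, 3 without a filter or with only the mice compared, and 0 with the block. The 2 calls in sham hearts became 5 with DESeq2, and the 2 for the difference of the TAC responses 146, and each became 1 with the block or a mean of at least 1 CPM. With a mouse left out, calls over all genes were 1962 to 3073 in AAV9-GFP hearts, 384 (without AAV9-Cardinal TAC mouse 5) to 1436 (without AAV9-Cardinal TAC mouse 1) in AAV9-Cardinal hearts, 1 to 3 between the viruses in sham hearts, 0 to 535 between them in TAC hearts, and 2 to 79 for the difference of the TAC responses. The 535 and the 79 were without AAV9-Cardinal TAC mouse 1, and the 0 was without any of 8 mice, each left out alone. Depth limits the rarest tRNAs, mt-Tf being at 0.754 CPM in 1 mouse.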
